A study of Mus musculus with 12 samples.

Results

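Hepcidin, the liver peptide hormone that limits iron entry into plasma, is encoded in the mouse by Hamp on chromosome 7, beside its near-copy Hamp2, Usf2 and Lsr. The regions described here are the promoters of these 4 genes and all enhancer regions lying in a fixed window of that chromosome (mm10) that reaches from within Mag to beyond the start of Lsr, in ATAC-seq of mouse liver. They comprise 20 of the 450029 regions counted, of which 6 of 43511 are promoters and 14 of 406518 are enhancers. The 3 Lsr transcripts have identical counts, so the 6 promoters hold 4 distinct sets of values. The locus was chosen by the values of the Hamp promoter and of 1 enhancer region downstream of it in atorvastatin against control, so for that comparison the members are described with no test. PCN against control and PCN against atorvastatin share libraries with it and are therefore not independent of the choice.

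ATAC-seq uses a transposase that cuts open DNA, so the count of a region follows how accessible it is. All mice were wild-type C57BL/6N males of 19 to 20 weeks on standard chow, dosed by gavage for 4 days and then fasted for 12 h. The groups were 10 mg/kg atorvastatin, a cholesterol-lowering statin, 100 mg/kg pregnenolone 16α-carbonitrile (PCN), which activates the pregnane X receptor of mice, and distilled water as the vehicle control. Each group has 4 libraries of bulk liver nuclei; groups held 9 to 10 mice, and the labels do not say whether a library is 1 mouse. P-values therefore measure only the spread between these libraries, which may be technical. A pravastatin group is not analysed here. In bulk tissue, a larger share of cells with an open region and a more open region per cell cannot be told apart.

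Hepcidin binds the iron exporter ferroportin and causes its degradation. In hepatocytes its transcription is raised by BMP6 and BMP2 through receptors with hemojuvelin as co-receptor and SMAD1, SMAD5 and SMAD4, and by interleukin 6 through STAT3, while TMPRSS6 and erythroferrone lower it. Usf2 encodes an upstream stimulatory factor that binds E-boxes, and Lsr encodes the lipolysis-stimulated lipoprotein receptor, which is also a component of tricellular junctions.

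In the reference annotation (RefSeq, GRCm38.p6, the assembly of mm10), Hamp2 lies at 30922372 to 30924181, Hamp at 30942368 to 30944029, Usf2 at 30945248 to 30956951 and Lsr at 30957770 to 30973469. Hamp is transcribed from the minus strand. Its start lies 1219 bases from the edge of Usf2, and 18187 bases separate it from Hamp2. Usf2 and Lsr are 819 bases apart. The Lsr start is 325 bases from that of Fam187b, and their reference promoter windows share 176 bases, so reads there cannot be told apart. The pseudogene Usf2-ps1 lies between Hamp2 and Hamp, and part of Mag, a myelin gene, reaches into the window.

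The 250 bases before the start of Hamp and of Hamp2 are shown because the 2 promoters gave different values and because their likeness bears on how reads are assigned. Both are read 5′ to 3′ on the minus strand, and capitals mark GGCGCC, the core of the BMP-responsive element, and TTCTTGGAA, a match to the STAT motif TTCNNNGAA.
Hamp, chr7:30944030-30944279: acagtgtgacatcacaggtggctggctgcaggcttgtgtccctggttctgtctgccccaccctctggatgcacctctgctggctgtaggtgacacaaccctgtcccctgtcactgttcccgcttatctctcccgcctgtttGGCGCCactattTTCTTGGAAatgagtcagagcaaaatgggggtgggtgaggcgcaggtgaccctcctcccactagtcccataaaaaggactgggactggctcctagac
Hamp2, chr7:30924182-30924431: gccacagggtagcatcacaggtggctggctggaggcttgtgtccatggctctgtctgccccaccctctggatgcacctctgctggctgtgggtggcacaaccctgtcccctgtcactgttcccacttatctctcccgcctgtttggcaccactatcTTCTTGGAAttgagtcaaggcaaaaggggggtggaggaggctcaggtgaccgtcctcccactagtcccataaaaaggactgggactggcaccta
Over 247 aligned bases 227 were identical (91.9%), with 20 differences. Reads from these stretches may have been split between the 2 genes, and the counting rule is not given in the sources used here. Counting from 1 at the 5′ end of the Hamp sequence, GGCGCC spans bases 142 to 147, and the single difference inside it is G145A, which leaves GGCACC in Hamp2. The STAT match is present in both, at bases 154 to 162 in Hamp and 157 to 165 in Hamp2. Among 32536 promoters of the same length, 9.65% hold GGCGCC and 7.04% hold TTCNNNGAA on either strand. CACGTG (an E-box bound by USF factors), TCACNCCAC (a sterol regulatory element), AGGTCA (a nuclear receptor half-site) and TATAAA (bound by the TBP protein) were also searched on both strands. They have no match in the windows of Hamp, Hamp2 or Lsr, and occur in 6.04%, 1.04%, 14.04% and 12.3% of all promoters. GC content is 57.2% in Hamp, 58.4% in Hamp2 and 66.8% in Lsr, against a median of 52.4%.

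Total counts in the promoter table were 4218336.5 to 15336000.5 for atorvastatin, 4872850.5 to 10021771.5 for PCN and 1679054 to 10493197 for control libraries. Libraries control 3 and atorvastatin 3 stood apart: their median correlations with the other libraries were 0.698 and 0.744 across promoters, against 0.897 to 0.966 for the other 10. Across enhancers they were 0.294 and 0.338, against 0.502 to 0.714. The fitted differences against control are therefore also given without these 2, a choice made with the data known. It is not neutral for Hamp, since control 3 had the highest Hamp level of the controls. All 6 hepatocyte markers were detected, with summed levels of 157 to 310 CPM (counts scaled to a common library size) in atorvastatin, 196 to 282 in PCN and 132 to 254 in control libraries, the lowest being control 3. Control 3 was the highest control for the summed markers of Kupffer cells (65.4 CPM), stellate cells (77.4 CPM) and oligodendrocytes (59.8 CPM). It was not the highest control for erythroid (49.8 CPM) or endothelial markers (45.1 CPM). Atorvastatin 3 had 237 CPM for hepatocyte markers and was the highest of its group for erythroid, Kupffer, endothelial and oligodendrocyte markers. The part of these differences in the results at the locus was not tested.

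The Hamp promoter had a higher mean level in livers given either compound than in control livers, and its controls were split between 3 low libraries and control 3. It had 35.1, 84.0, 49.4 and 89.5 CPM in atorvastatin libraries 1 to 4, and 46.8, 70.0, 52.6 and 63.4 CPM in PCN libraries 1 to 4. Controls 1 to 4 had 19.3, 24.4, 48.4 and 24.5 CPM. Control 3 lies above atorvastatin 1 and PCN 1, so both treated groups overlap the controls through that 1 library. The deposited counts behind these levels were 158.5 to 1162.5 for atorvastatin, 306.5 to 469 for PCN and 39 to 227.5 for control.

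**Figure D1:**
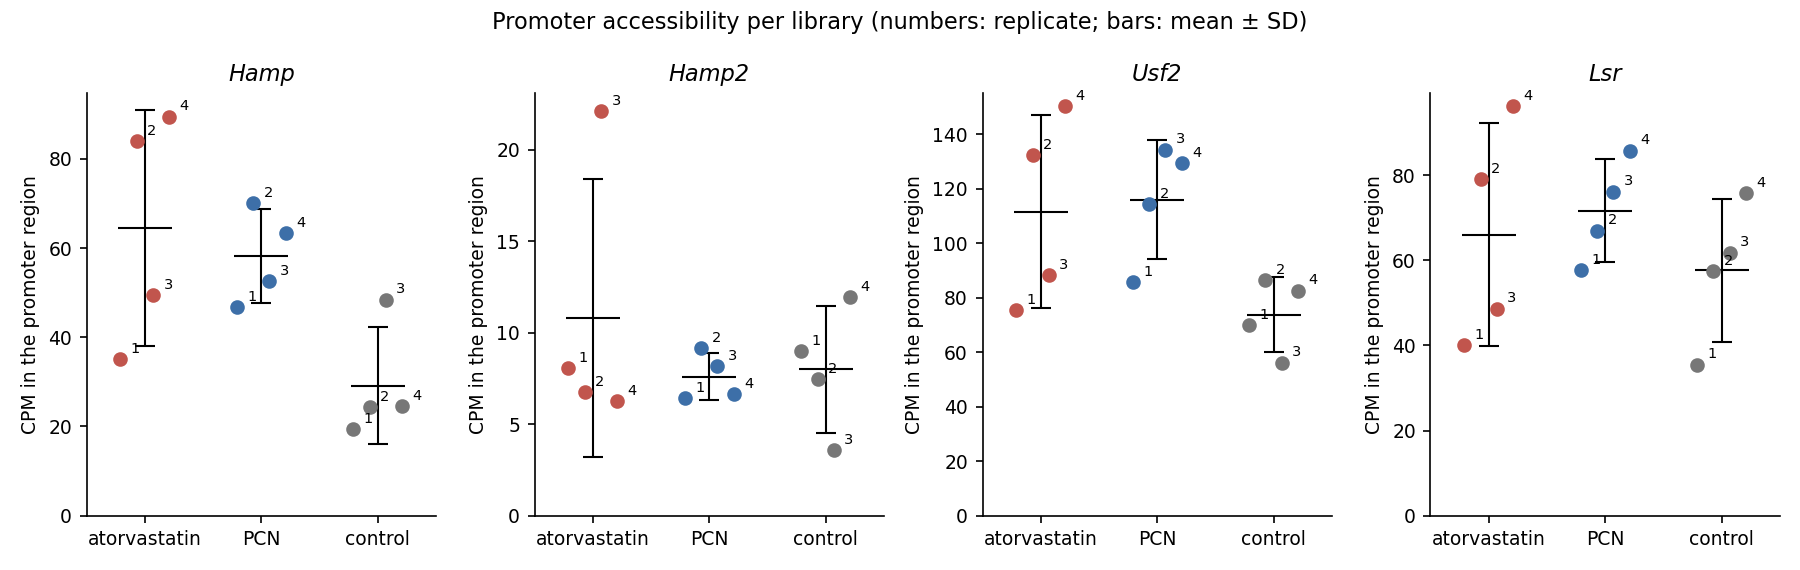
Promoter levels in CPM (y axes, from 0) for Hamp, Hamp2, Usf2 and Lsr in the 4 atorvastatin, 4 PCN and 4 control libraries; points are libraries with their replicate number, bars are mean ± SD. At Hamp, control 3 (48.4 CPM) is the only control above 24.5 CPM, and at Hamp2, atorvastatin 3 (22.1 CPM) lies far above the rest.

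The mean Hamp level was 64.5 ± 26.4 CPM in atorvastatin, 58.2 ± 10.5 CPM in PCN and 29.2 ± 13.1 CPM in control libraries (SD, n = 4 libraries each). The fitted log2 fold change for atorvastatin against control was 1.17 ± 0.31 (SE), a description of the comparison that chose the locus. For PCN against control it was 1.01 ± 0.31, a 2.02-fold difference with a 95% interval of 1.32 to 3.07. This did not pass the test, with an adjusted p of 0.92 by edgeR's quasi-likelihood test over 41908 promoters, and 3 of 4 PCN libraries were above every control. By unadjusted p (0.0032) the promoter ranked 17 of 41908. The controls are those of the comparison that chose the locus, so this rank is not independent of the choice.

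No promoter or enhancer of the whole series passed an adjusted p of 0.05 by edgeR in any of the 3 comparisons, which is 0% of each table. At an unadjusted p under 0.05 there were 807 promoters for atorvastatin against control, 1572 for PCN against control and 306 for PCN against atorvastatin. The numbers of enhancers were 4361, 3511 and 847 in the same order, of 182115 tested. DESeq2 called 1 promoter for atorvastatin against control and nothing else, and limma-voom called none.

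Without control 3 and atorvastatin 3 the Hamp difference was larger and its error smaller. The means were 69.5 ± 29.96 CPM in atorvastatin (n = 3), 58.2 ± 10.5 CPM in PCN (n = 4) and 22.7 ± 2.94 CPM in control libraries (n = 3). The log2 fold change was 1.64 ± 0.26 for atorvastatin against control. For PCN against control it was 1.37 ± 0.24, or 2.59-fold (95% interval 1.86 to 3.62), with an edgeR adjusted p of 0.0018. Hamp was then 1 of 6 promoters called of 41915 (0.0143%). All 4 PCN libraries were above the 3 controls because control 3, the only control above a PCN library, was left out. The share of all promoters with that order in these libraries was not determined. Leaving out control 3 alone gave 1.36 ± 0.30 with an edgeR adjusted p of 1.00, so the call needs both libraries left out.

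PCN and atorvastatin livers could not be told apart at Hamp. The log2 fold change for PCN against atorvastatin was -0.16 ± 0.30, with a 95% interval of -0.74 to 0.42 and an edgeR adjusted p of 1.00, and -0.27 ± 0.22 without the 2 libraries. The interval leaves room for a difference of up to 0.74 on the log2 scale, so like levels are not shown.

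Hamp2, whose product is not known to take over hepcidin's role in iron control, had groups that overlap. Its counts were 36.5, 93.5, 196 and 77 in atorvastatin, 56.5, 43.5, 73 and 32 in PCN, and 105.5, 48, 9 and 19 in control libraries. The levels were 8.07, 6.76, 22.1 and 6.28 CPM in atorvastatin, 6.43, 9.16, 8.19 and 6.62 CPM in PCN, and 8.97, 7.45, 3.59 and 11.9 CPM in control libraries 1 to 4. The highest and lowest values are the 2 libraries that stood apart. Log2 fold changes were 0.44 ± 0.49 for atorvastatin and -0.06 ± 0.49 for PCN against control (edgeR adjusted p = 0.99). Without the 2 libraries they were -0.40 ± 0.41 and -0.27 ± 0.39. For atorvastatin, leaving out atorvastatin 3 alone gave -0.18 ± 0.43 and leaving out control 3 alone gave 0.22 ± 0.45, so its sign rests on atorvastatin 3. For PCN against atorvastatin the value was -0.50 ± 0.48 with all libraries and 0.13 ± 0.38 without the 2 libraries.

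The Usf2 promoter had 75.4, 132, 88.4 and 150 CPM in atorvastatin and 85.9, 114, 134 and 129 CPM in PCN libraries. Controls 1 to 4 had 70.0, 86.4, 56.2 and 82.6 CPM. Atorvastatin 1 and PCN 1 fall below the highest control, and the other 6 treated libraries are above all controls. Means were 112 ± 35.5 CPM in atorvastatin, 116 ± 21.8 CPM in PCN and 73.8 ± 13.7 CPM in control libraries (SD, n = 4 each). The log2 fold change was 0.60 ± 0.29 for atorvastatin against control, and 0.59 ± 0.32 without the 2 libraries. For PCN against control it was 0.65 ± 0.29 (95% interval 0.08 to 1.22, edgeR adjusted p = 0.92), which did not pass the test, and without the 2 libraries 0.55 ± 0.30. For PCN against atorvastatin it was 0.05 ± 0.29.

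At the Lsr promoter atorvastatin libraries 1 to 4 had 40.2, 79.1, 48.6 and 96.2 CPM, PCN libraries 57.7, 67.0, 76.1 and 85.8 CPM, and controls 35.5, 57.5, 61.8 and 75.7 CPM. The groups overlap. Log2 fold changes were 0.22 ± 0.29 for atorvastatin and 0.33 ± 0.29 for PCN against control, the second with an edgeR adjusted p of 0.92. They were 0.40 ± 0.28 and 0.39 ± 0.26 without the 2 libraries, and 0.11 ± 0.29 for PCN against atorvastatin. None of the 4 promoters had every treated library above every control, in either treatment. Over all promoters 0.535% did for atorvastatin and 2.07% for PCN.

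Setting Hamp against its neighbour within the same library removes differences of depth. The ratio of Hamp to Usf2 counts was 0.465, 0.634, 0.559 and 0.595 in atorvastatin and 0.545, 0.612, 0.391 and 0.490 in PCN libraries. Controls 1, 2 and 4 had 0.276, 0.282 and 0.297, and control 3 had 0.862. The 8 treated libraries all lie above 3 controls and below the fourth. Mean ratios were 0.563 ± 0.0724 in atorvastatin, 0.510 ± 0.0932 in PCN and 0.429 ± 0.288 in control libraries, or 0.285 ± 0.0104 without control 3. The ratio of Hamp to Lsr was 0.873 to 1.06 in atorvastatin, 0.691 to 1.05 in PCN and 0.324 to 0.784 in control libraries, again with control 3 highest.

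**Figure D2:**
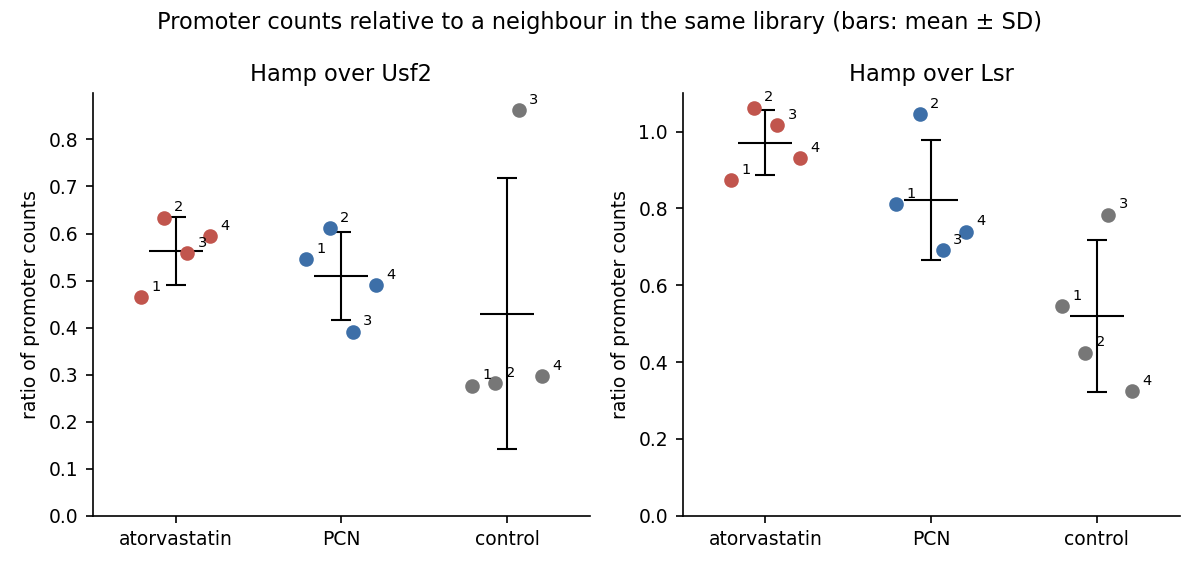
Ratio of Hamp promoter counts to Usf2 (left) and Lsr (right) promoter counts in the same library, for atorvastatin, PCN and control; points are libraries with their replicate number, bars are mean ± SD. Control 3 (0.862) lies above every treated library for Usf2, while the other 3 controls lie between 0.276 and 0.297.

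The 14 enhancer regions form 7 loci of overlapping regions, which share reads. Of the 14 regions, 9 in 3 loci passed the filter on low counts, and the highest counts of the other 5 ranged from 9 to 25.5. The tested loci were 1 region downstream of Hamp, 5 regions within Usf2 and 3 within Lsr. The other loci were 2 inside Mag, 1 in the Lsr gene and 1 between Hamp2 and Hamp. The annotation used here gives gene bodies but no exons, so exonic and intronic positions were not resolved. No genome sequence was used here, so the sequences of these regions are not shown.

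The region nearest to Hamp lies at chr7:30940236-30940418, between genes, 1950 bases beyond the 3′ end of Hamp. Its level was higher in every treated library than in any control, from few counts in several of them. Counts were 7, 58, 99 and 79.5 in atorvastatin, 31.5, 20.5, 20.5 and 12.5 in PCN, and 4.5, 5, 0 and 0 in control libraries. The levels were 3.47, 5.36, 24.7 and 11.1 CPM in atorvastatin, 6.68, 5.84, 3.84 and 4.48 CPM in PCN, and 1.16, 1.63, 0 and 0 CPM in control libraries. Scaled by all enhancer counts of the library, atorvastatin 3 had 12.2 CPM, so its level depends on the scaling. The measured levels of the groups do not overlap. By exact 95% Poisson intervals (counting error only) the 0 counts of control 3 and control 4 allow up to 1.99 and 3.51 CPM. The second is above the level of atorvastatin 1, and the intervals of PCN 3 and PCN 4 start at 2.36 and 2.35 CPM. Atorvastatin 1 (7 counts) and control 2 (5 counts) do not differ beyond counting error, with exact 95% Poisson intervals of 1.39 to 7.14 CPM and 0.529 to 3.801 CPM. This region is 1 of the 9 tested regions with such a split in either treatment. Over all enhancers 2.12% had it for atorvastatin and 3.64% for PCN. The atorvastatin split belongs to the comparison that chose the region, so it is a description. The region's control counts were at most 5, under the 10 counts of the filter, so it entered the test through treated libraries.

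Mean levels there were 11.2 ± 9.61 CPM in atorvastatin, 5.21 ± 1.28 CPM in PCN and 0.697 ± 0.827 CPM in control libraries (SD, n = 4 each). The log2 fold change for atorvastatin against control, which chose the region, was 3.69 ± 0.78, and 2.67 ± 0.55 without the 2 libraries. For PCN against control it was 2.57 ± 0.79 (edgeR adjusted p = 1.00, unadjusted 0.0037), and 2.23 ± 0.56 without the 2 libraries (adjusted p = 0.41). It did not pass the test in either fit. For PCN against atorvastatin it was -1.12 ± 0.62, and -0.45 ± 0.37 without the 2 libraries. By its width this region belongs to a class whose mean level, relative to all width classes of a library, was highest in atorvastatin 3. That relative level was 8.76 times the median of the libraries, and atorvastatin 3 was the highest library here.

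**Figure D3:**
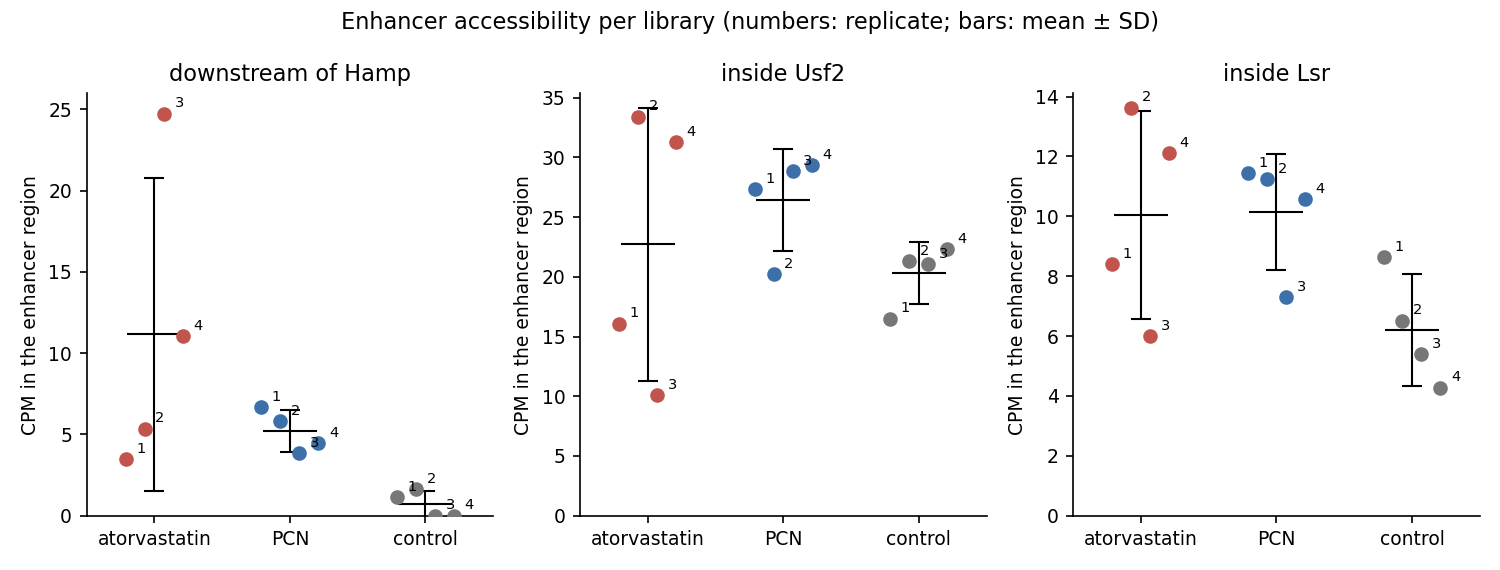
CPM (y axes, from 0) of the region downstream of Hamp, of 1 of the 5 overlapping regions inside Usf2 and of 1 of the 3 inside Lsr, in atorvastatin, PCN and control libraries; points are libraries with their replicate number, bars are mean ± SD. Downstream of Hamp every treated library is at or above 3.47 CPM and every control at or below 1.63 CPM.

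The regions inside Usf2 span chr7:30954217-30954428 and had the highest mean levels per kb of the window in each group. They had 101 to 131 CPM per kb in atorvastatin, 133 to 154 in PCN and 91.3 to 133 in control livers, and the highest of all other regions had 88.8, 88.7 and 52.9 CPM per kb in the same order. The widest of them, chr7:30954236-30954428, had 16.1, 33.4, 10.1 and 31.3 CPM in atorvastatin, 27.3, 20.2, 28.9 and 29.4 CPM in PCN, and 16.5, 21.3, 21.1 and 22.3 CPM in control libraries. The groups overlap. Its log2 fold changes were 0.18 ± 0.34 for atorvastatin and 0.38 ± 0.34 for PCN against control (edgeR adjusted p = 1.00), or 0.51 ± 0.30 and 0.45 ± 0.29 without the 2 libraries. For PCN against atorvastatin it was 0.20 ± 0.34. Over the 5 regions the log2 fold changes were 0.03 to 0.21 for atorvastatin and 0.20 to 0.55 for PCN against control. They were 0.41 to 0.51 for atorvastatin and 0.36 to 0.45 for PCN without the 2 libraries. The region chr7:30954217-30954363 had 13.9, 23.8, 10.1 and 24.0 CPM in atorvastatin, 20.6, 14.4, 21.8 and 20.6 CPM in PCN, and 12.1, 15.5, 15.4 and 21.4 CPM in control libraries. For chr7:30954257-30954385 the levels were 12.1, 24.2, 6.87 and 23.0 CPM in atorvastatin, 19.4, 15.8, 22.7 and 20.8 CPM in PCN, and 12.4, 15.8, 19.2 and 18.1 CPM in control libraries. In both, atorvastatin 3 was the lowest of the 12 libraries and atorvastatin 2 and 4 were the highest. The narrower chr7:30954278-30954362 had 8.17, 15.1, 6.87 and 13.9 CPM in atorvastatin, 12.3, 8.54, 16.7 and 12.7 CPM in PCN, and 7.73, 11.2, 13.5 and 12.4 CPM in control libraries. The last, chr7:30954340-30954422, had 5.45, 14.01, 0.874 and 12.7 CPM in atorvastatin, 11.0, 8.54, 10.6 and 13.98 CPM in PCN, and 7.99, 10.1, 5.67 and 6.18 CPM in control libraries.

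Inside Lsr, 20501 bases from Hamp, chr7:30964530-30964658 had 8.42, 13.6, 5.99 and 12.1 CPM in atorvastatin, 11.4, 11.2, 7.31 and 10.6 CPM in PCN, and 8.63, 6.51, 5.40 and 4.28 CPM in control libraries. Atorvastatin 1 and 3 and PCN 3 fall below control 1, so the groups overlap. Log2 fold changes were 0.68 ± 0.43 for both atorvastatin and PCN against control, the second with an edgeR adjusted p of 1.00. Without the 2 libraries they were 0.80 ± 0.33 and 0.59 ± 0.32. For PCN against atorvastatin the value was 0.0014 ± 0.43. The overlapping region chr7:30964522-30964628 had 7.43, 13.3, 5.74 and 11.2 CPM in atorvastatin, 11.1, 10.8, 6.00 and 9.68 CPM in PCN, and 6.83, 5.70, 5.40 and 2.85 CPM in control libraries, with log2 fold changes of 0.82 ± 0.45 for atorvastatin and 0.78 ± 0.45 for PCN, or 1.00 ± 0.35 and 0.75 ± 0.35 without the 2 libraries.

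**Figure D4:**
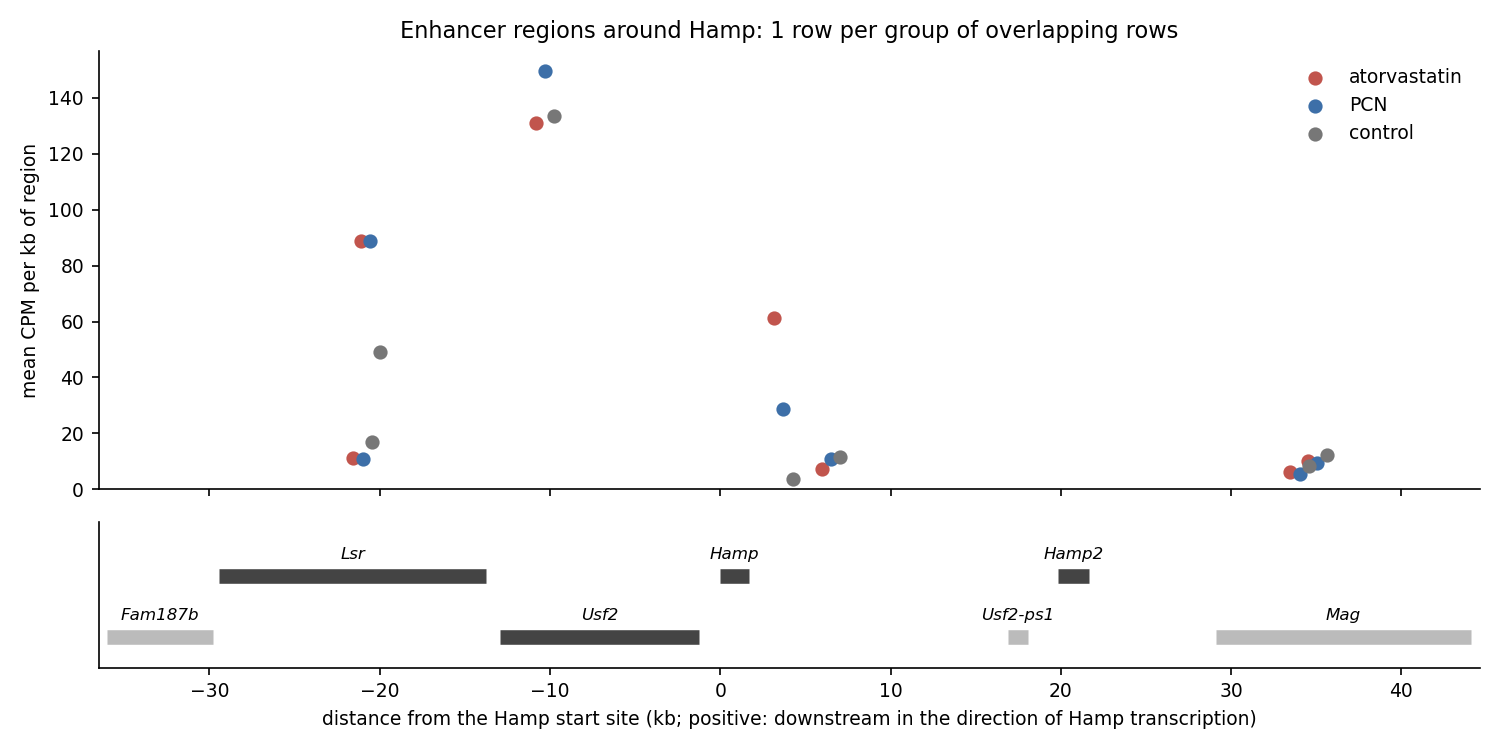
Mean CPM per kb of region (y axis) against distance from the Hamp start (x axis, kb, positive downstream of Hamp) for 1 region per locus of overlapping regions, in atorvastatin, PCN and control; points of 1 region are shifted sideways so that they can be seen, and bars below show gene bodies. The locus within Usf2 is the highest in all groups, and in proportion the treated means exceed the control mean most at the region downstream of Hamp. That region was chosen by its values in atorvastatin against control, so its place is a description.

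All 9 tested enhancer regions had a log2 fold change above 0 for both treatments, with medians of 0.21 for atorvastatin and 0.55 for PCN. Over all 182115 enhancers 58.4% and 62.0% were above 0, with medians of 0.12 and 0.17. The same 9 were above 0 without the 2 libraries, with medians of 0.51 for atorvastatin and 0.45 for PCN, against 0.01 and 0.02 over all enhancers. Another region, chr7:30908899-30909037 inside Mag, then passed the filter and had -0.63 ± 0.83 for atorvastatin and -0.92 ± 0.79 for PCN. The 9 regions come from 3 loci and are not independent. They include the region downstream of Hamp, whose atorvastatin values were used to choose the locus. The untested region chr7:30937435-30937627, between Hamp2 and Hamp, had 14 of its 18.5 control counts in control 3.

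**Figure D5:**
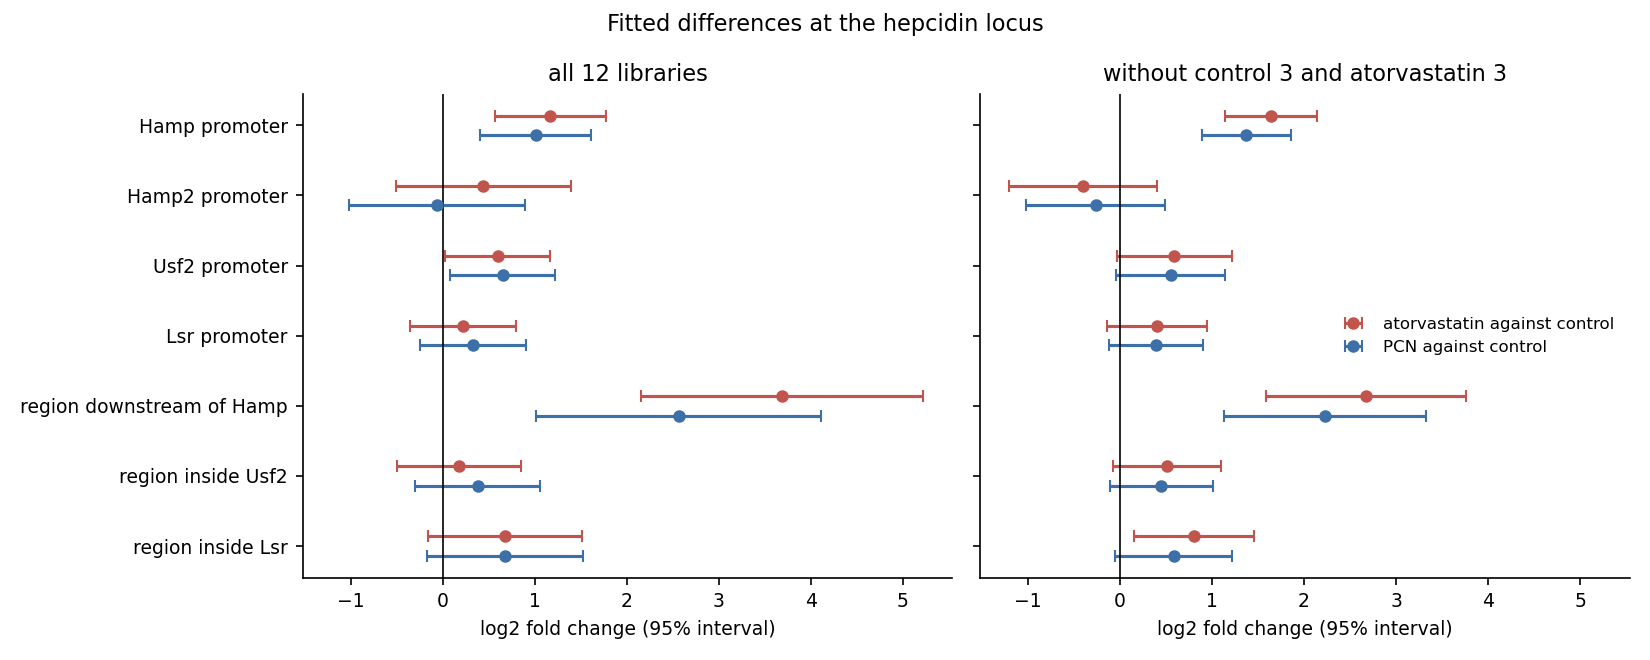
Fitted log2 fold changes (x axis) with 95% intervals for the 4 promoters and 3 enhancer regions, atorvastatin against control (upper point) and PCN against control (lower point), with all 12 libraries and without control 3 and atorvastatin 3. The Hamp promoter (1.17 and 1.01 with all libraries) and the region downstream of it (3.69 and 2.57) lie farthest from 0. Both were chosen by their values in atorvastatin against control, so their distance from 0 follows from the choice. Their intervals in that comparison are a description and not a test, and PCN shares the controls. The Hamp2 value for atorvastatin changes sign between panels (0.44 and -0.40).

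Of 36 listed symbols of genes that act on hepcidin expression or iron sensing, 34 had a tested promoter (the others are older names of Hjv and Erfe), and 0 passed the test in any comparison by edgeR. At an unadjusted p under 0.05 there were 2 for atorvastatin against control, 4 for PCN against control and 0 for PCN against atorvastatin. These are 5.88% and 11.8% of the 34 for the treatments against control, beside 1.93% and 3.75% of all promoters. Their log2 fold changes were above 0 for 27 genes with atorvastatin and 28 with PCN, with medians of 0.13 and 0.22, against 0.05 and 0.01 over all promoters. That is 79.4% and 82.4% of the 34, beside 57.3% and 51.0% of all promoters. All promoters were not matched to the list by level. Whether the shares given here are particular to the listed genes was therefore not tested. Without the 2 libraries 0 passed as well (2 and 3 at an unadjusted p under 0.05), and 32 were above 0 for atorvastatin and 28 for PCN, with medians of 0.22 and 0.17, while 47.8% and 48.3% of all promoters were above 0.

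Of the BMP and SMAD genes, 10 of 16 were above 0 for atorvastatin and 11 for PCN, or 16 and 13 without the 2 libraries. Neo1, which encodes the hemojuvelin-binding receptor neogenin, had 0.51 ± 0.23 for atorvastatin, and 0.46 ± 0.21 without the 2 libraries. Smad4, the shared SMAD partner, had -0.44 ± 0.26 for atorvastatin, and Smad1, a SMAD that BMP receptors phosphorylate, had -0.24 ± 0.29. Both signs rest on the 2 libraries, without which the values were 0.03 ± 0.20 for Smad4 and 0.19 ± 0.22 for Smad1. The ligand genes Bmp2 and Bmp6 had -0.35 ± 0.25 and -0.35 ± 0.31 for PCN, and -0.28 ± 0.21 and -0.24 ± 0.27 without the 2 libraries. These are log2 fold changes that did not pass the test.

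All 7 genes of iron sensing and the erythroid signal were above 0 for both treatments, and 6 of 7 for each without the 2 libraries. Trf, which encodes transferrin, had 0.71 ± 0.33 for PCN, with 64.9 ± 9.98 CPM in PCN and 40.3 ± 18.4 CPM in control libraries (SD, n = 4 each). Its log2 fold change was 0.52 ± 0.25 without the 2 libraries. Erfe, which encodes erythroferrone, had 0.50 ± 0.35 for atorvastatin, but -0.09 ± 0.25 without the 2 libraries, where its value for PCN was -0.12 ± 0.23. Of the inflammatory and transcription factor genes 10 of 11 were above 0 for each treatment, and 10 for atorvastatin and 9 for PCN without the 2 libraries. Socs3, a feedback inhibitor of STAT3 signalling, had 0.63 ± 0.28 for atorvastatin and 0.68 ± 0.28 for PCN, and Usf1, a partner of USF2, had 0.53 ± 0.32 for PCN. Without the 2 libraries Socs3 had 0.44 ± 0.26 and 0.45 ± 0.24, and Usf1 0.25 ± 0.18. Creb3l3, a liver transcription factor of the endoplasmic reticulum, had -0.27 ± 0.48 for atorvastatin and -0.35 ± 0.49 for PCN, and -0.66 ± 0.38 and -0.66 ± 0.36 without the 2 libraries. None of these values passed the test.

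The promoters whose log2 CPM followed Hamp most closely over the 12 libraries, by Pearson's r given as a description, were C2cd5 (0.91), 2310001K24Rik (0.90), Rabep2 (0.90), Fitm2 (0.89) and Ppl (0.89). Usf2 had 0.70, Lsr 0.67 and Hamp2 -0.23. Over the 10 libraries without control 3 and atorvastatin 3 the closest were Fbxw9 (0.98), Psmd5 (0.97), A230103J11Rik (0.97), Tonsl (0.97) and Onecut2 (0.96), with Usf2 at 0.89, Lsr at 0.71 and Hamp2 at -0.57.  All these values share the same libraries and their depths.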

How the data were processed

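ATAC-seq counts of 12 liver libraries were used, 4 per group. The authors deposited estimated counts per promoter and per enhancer region, in steps of 0.5 and not normalised, as read from the values. Per the submitters' processing notes, the build was mm10 and the tools were HOMER 4.10, bedtools 2.30.0, STAR 2.7.9a and Trimmomatic, with no roles given; the width of a promoter window, the peak caller and the counting rule are not given in the sources used here. Promoter levels are therefore not compared between genes.

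Counts were rounded and fitted over each whole table in R 4.3.3 with edgeR 4.0.16 (quasi-likelihood test, TMM, group only, 12 libraries), after filterByExpr at 10 counts per region and 15 in total, and with Benjamini-Hochberg adjustment over 41908 promoters and 182115 enhancers. CPM used TMM-scaled library sizes taken over the regions past the filter. SE was obtained by dividing the size of each log2 fold change by the root of its F statistic, and 95% intervals are normal. Enhancer totals were 1256648.5 to 13078975.5. The fit code was run on simulated counts with the same spread for every region and no library standing apart, unlike these data. Its outcome there does not carry over to these libraries.

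Alternatives were other scalings and filters, DESeq2 1.42.0, limma-voom (limma 3.58.1), the replicate number as a block, only the compared groups in the fit, each library left out, and 2 libraries left out. The members, the lists, the motifs and the omission of control 3 and atorvastatin 3 were chosen with earlier results of these data known. Named were the 4 promoters, the 6 window enhancers of highest mean CPM with the 3 of smallest p per treatment, up to 3 regulators per direction and treatment by size, and the 5 promoters most like Hamp. Replicate numbers were not taken to pair the samples, since not every same-numbered pair deviated together. Summed markers in atorvastatin, PCN and control libraries were 57.8 to 70.1, 52.8 to 55.4 and 42.7 to 59.8 CPM for erythroid cells, 16.6 to 57.9, 22.2 to 34.6 and 18.9 to 65.4 for Kupffer cells, and 29.6 to 66.3, 23.5 to 41.1 and 23.9 to 53.5 for endothelial cells. They were 29.1 to 58.4, 26.2 to 43.4 and 40.8 to 77.4 CPM for stellate cells and 16.8 to 39.6, 15.3 to 25.6 and 27.3 to 59.8 for oligodendrocytes, and no marker was at 0 in all libraries.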

Additional observations from a re-analysis of the deposited data

Results flagged for a closer look

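In 42 groups of 4 libraries, 2 held a library far from the others (a gap to the nearest library, relative to the group's range, above Dixon's 95% critical value), and chance flags about 1 in 20 groups. The Hamp2 promoter had 22.1 CPM in atorvastatin 3, with a gap of 0.887 of the range. The ratio of Hamp to Usf2 promoter counts was 0.862 in control 3, with a gap of 0.966 of the range. Both are the libraries whose correlation with the others was lowest across all regions.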

How the results depend on the processing

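Hamp stayed above control under all 22 alternatives, at 0.97 to 1.64 on the log2 scale for atorvastatin and 0.84 to 1.37 for PCN, with edgeR, DESeq2 or limma-voom adjusted p for PCN of 5.3e-09 to 1.00. The lowest came from edgeR with the replicate block and without control 3 and atorvastatin 3, a fit whose limits are given below. Leaving out 1 library at a time gave 0.97 to 1.52 for atorvastatin and 0.84 to 1.36 for PCN, mean levels of 56.2 to 74.3 CPM in atorvastatin, 54.3 to 62.0 CPM in PCN and 22.7 to 32.4 CPM in control livers, and 0 calls. Without control 3 and atorvastatin 3, edgeR called 4 promoters for atorvastatin and 6 for PCN, and Hamp for PCN was 1.37 (adjusted p = 0.0018). DESeq2 called 1 promoter for atorvastatin. The cause of these changes was not tested. Scaling by library totals moved the median of all regions for PCN against control to -0.10 for promoters, against 0.01 with TMM, and to 0.05 for enhancers, against 0.17; Hamp was then 0.90 for PCN.

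Correlations of the deviations of same-numbered libraries were over 0.1 in 6 of 12 pairs for promoters and 7 of 12 for enhancers. Across promoters they were 0.365 to 0.5005 for number 1 and 0.227 to 0.433 for number 4, but -0.094 to 0.095 for number 2 and -0.416 to 0.064 for number 3. For enhancers all 12 were -0.0151 to 0.154. On average 6 of 12 libraries for promoters and 10 of 12 for enhancers were closest to their own number, a hint from the data and not the design, so the replicate block is given only as an alternative. With the replicate block and all libraries edgeR made 0 calls, and Hamp for PCN was 1.02 (adjusted p = 0.82). With the replicate block and without the 2 libraries there were 57 promoters called for atorvastatin and 124 for PCN. For enhancers there were 4 and 20, and Hamp for PCN was 1.35 (edgeR adjusted p = 5.3e-09). In that fit PCN 3 was the only library of number 3, so the block took it up and it did not inform the comparison. The pairing comes from the data, and the control with the highest Hamp level was left out. This p is therefore not read as support.

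For PCN against atorvastatin the region downstream of Hamp was below 0 under all 21 alternatives it entered (-1.36 to -0.20). It was chosen by its atorvastatin values and the alternatives share libraries, so this sign is not independent of the choice. The value was -1.12 with all libraries and -0.41 without atorvastatin 3. The other members changed sign under some alternatives. Hamp was 0.071 by limma-voom and -0.36 to 0.041 leaving out 1 library. Without the 2 libraries, and then with the replicate block too, Hamp2 was 0.13 and 0.089, Usf2 -0.039 and -0.096, the region inside Usf2 -0.061 and -0.055, and the region inside Lsr -0.22 and -0.080, while Lsr was -0.010 without the 2 libraries. The region inside Usf2 was -0.090 by limma-voom. The region inside Lsr was -0.0075 with DESeq2 size factors, -0.018 with library totals, -0.042 with a minimum count of 30, -0.021 by DESeq2, -0.27 by limma-voom and -0.011 with only the 2 groups compared. Leaving out 1 library, the ranges were -0.69 to 0.13 for Hamp2, -0.093 to 0.23 for Usf2, -0.062 to 0.35 for Lsr, -0.042 to 0.46 inside Usf2 and -0.19 to 0.20 inside Lsr. For PCN against control, Hamp2 ranged from -0.28 to 0.15.

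With 1 region per overlapping locus 3 window enhancers were tested, and with a minimum count of 30 there were 8, the region downstream of Hamp being lost. Its control counts, at most 5 per library, limit its fold change.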
